A study of Mus musculus with 9 samples.

Results

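The 8 genes described here, Saa3, Lcn2, Socs3, Lif, Myc, Bcl3, Cebpb and Mcl1, are textbook responders to interleukin-6 (IL-6) and its transcription factor STAT3. They were taken by name from the count table and make up 8 of its 12125 genes. The rule itself uses no measured value, but the genes were chosen with earlier results of these data known. Their RNA was measured by RNA sequencing in TC2R cells, a line made from mouse TRAMP-C2 prostate adenocarcinoma cells of C57/BL6 background by lentiviral transduction that included an activated H-ras, so every group carries it. The 3 groups of 3 libraries each differed in the plasmid delivered with Lipofectamine. Plasmid control cells received the empty backbone, IL27_scr cells the backbone encoding interleukin-27 (IL-27) with a non-specific peptide at its C-terminus, and IL27_pepL cells the backbone encoding IL-27 that ends in the peptide pepL (LSLITRL), which is meant to target the alpha chain of the IL-6 receptor. Transfection lasted 6 h and cells were collected 24 h after it began. Nothing in the labels says whether the libraries of a group came from separate cultures, so p-values measure the spread between these libraries, which may be technical.

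IL-6 family cytokines, among them IL-6, LIF and IL-27, signal through receptors that contain gp130 (gene Il6st), whose JAK kinases phosphorylate STAT proteins. STAT3 then enters the nucleus and raises acute-phase genes, transcription factors such as Myc, Cebpb and Bcl3, the survival gene Mcl1, and Socs3, whose product binds gp130 and JAKs and shuts the signal off. IL-27 itself, a dimer of the products of Il27 and Ebi3, signals through IL-27 receptor alpha and gp130, and STAT3 is among the factors it activates. In the prostate, STAT3 is best known as a growth and survival factor of carcinoma cells.

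The genes lie on several chromosomes in the mm10 build (positions from GENCODE M21) and are all protein coding. Saa3 is on chromosome 7 at 46711998 to 46715700, and Bcl3 on the same chromosome at 19808462 to 19822770. Lcn2 is on chromosome 2 at 32384633 to 32388252, and Cebpb at 167688915 to 167690418 of the same chromosome. Socs3 is on chromosome 11 at 117966079 to 117970047 and Lif at 4257557 to 4272514 of it. Myc is on chromosome 15 at 61985391 to 61990374 and Mcl1 on chromosome 3 at 95658788 to 95663176. Cebpb overlaps Tmem189 on the opposite strand, and Bcl3 overlaps the antisense genes Gm16175 and Gm16174. The strand setting of the counting is not given in the sources used here, so reads of these overlapping genes cannot be told apart.

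The promoters of Saa3, Lcn2, Socs3 and Lif are shown because these genes were called in a comparison and have an entry in the promoter table used here. Each is the stretch from 250 bases before to 50 bases after the RefSeq start (GRCm38.p6), printed 5′ to 3′ on the gene's own strand, with motif matches in capitals. The windows are chr7:46715627-46715926 (minus strand) for Saa3, chr2:32387690-32387989 (minus strand) for Lcn2, chr11:117969317-117969616 (minus strand) for Socs3 and chr11:4257318-4257617 (plus strand) for Lif.
Saa3: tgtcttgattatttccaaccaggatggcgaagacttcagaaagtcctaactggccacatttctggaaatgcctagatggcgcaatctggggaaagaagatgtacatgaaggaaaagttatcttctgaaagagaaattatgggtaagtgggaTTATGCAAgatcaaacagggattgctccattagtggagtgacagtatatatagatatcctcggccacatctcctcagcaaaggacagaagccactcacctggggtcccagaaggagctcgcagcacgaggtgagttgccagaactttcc
Lcn2: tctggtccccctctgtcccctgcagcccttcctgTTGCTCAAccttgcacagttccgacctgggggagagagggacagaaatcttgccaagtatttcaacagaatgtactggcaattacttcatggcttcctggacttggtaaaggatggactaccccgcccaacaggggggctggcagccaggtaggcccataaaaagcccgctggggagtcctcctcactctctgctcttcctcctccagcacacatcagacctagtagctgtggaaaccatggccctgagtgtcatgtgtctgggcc
Socs3: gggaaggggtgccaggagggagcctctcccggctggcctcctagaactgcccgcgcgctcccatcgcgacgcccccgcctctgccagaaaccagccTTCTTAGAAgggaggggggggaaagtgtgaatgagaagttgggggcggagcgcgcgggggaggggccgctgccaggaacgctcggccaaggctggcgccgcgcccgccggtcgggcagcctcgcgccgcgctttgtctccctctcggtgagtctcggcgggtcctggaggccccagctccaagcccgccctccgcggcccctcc
Lif: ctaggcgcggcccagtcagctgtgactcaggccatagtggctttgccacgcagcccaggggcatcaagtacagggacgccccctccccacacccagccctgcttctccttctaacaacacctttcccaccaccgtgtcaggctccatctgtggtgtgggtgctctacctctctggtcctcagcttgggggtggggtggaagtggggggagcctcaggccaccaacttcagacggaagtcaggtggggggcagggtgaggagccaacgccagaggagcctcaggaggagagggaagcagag

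Both strands were searched for the STAT motif TTCNNNGAA, the C/EBP motif TTGCNNAA and the NF-kB motif, and no 2 matches overlapped. The Socs3 promoter held the STAT match TTCTTAGAA, whose first base lies 154 bases before the start (-154). The Saa3 promoter held a C/EBP match, printed as TTATGCAA because it reads on the opposite strand, from -99, and the Lcn2 promoter held the C/EBP match TTGCTCAA from -216. Among the other members the Bcl3 promoter held an NF-kB match from base 3 after the start, which also reads on the opposite strand and is printed as GGGAAGTCCC. The Lif, Cebpb and Mcl1 windows held none of the motifs. Of 11860 promoters of genes in the count table, 6.77% held the STAT motif, 8.15% the C/EBP motif and 5.27% the NF-kB motif. The Lcn2 and Socs3 windows lie wholly inside the GENCODE positions of these genes, downstream of the GENCODE gene starts. The motif positions, and the motifs found or missed, therefore depend on the start used. A match is a description of the letters and no evidence of binding.

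Each plasmid control library held 27609884 to 35078027 reads, each IL27_scr library 30087806 to 35959983 and each IL27_pepL library 30013229 to 34164353. Values are CPM, the standard depth-scaled unit of read counts, with library sizes scaled by the trimmed mean of M-values method. The transgenes were read as labelled: Il27 stood at 0.0233 ± 0.0202 CPM (SD, n = 3) in plasmid control, 6.47 ± 0.504 in IL27_scr and 7.62 ± 0.762 in IL27_pepL. Ebi3 stood at 0.0318 ± 0.0336, 8.0 ± 0.764 and 11.5 ± 2.53 CPM. For both transgenes the 3 IL27_pepL libraries lay above the 3 IL27_scr libraries. The log2 difference was 0.52 ± 0.14 for Ebi3 (edgeR adjusted p = 0.0697) and 0.23 ± 0.11 for Il27 (edgeR adjusted p = 0.236). The part of these steps in the differences between IL27_pepL and IL27_scr was not tested. Il6ra, which encodes the receptor chain that pepL is directed at, was detected at 16.4 ± 1.3 CPM in plasmid control. IL27_pepL replicate 3 stood apart on principal component 1 (39.2% of the variance), at 20.1 against 4.14 and 8.36 for IL27_pepL replicates 1 and 2 and -11.1 to -1.56 for the other libraries. Among the epithelial markers, Krt8 reached 1.68 to 2.51 CPM and Cdh1 0.267 to 0.761 CPM. Krt18, Krt5, Krt14 and Epcam have no row in the count table, so their levels are unknown. The mesenchymal marker Vim reached 2729 to 3385 CPM, so these keratin and cadherin markers do not show the epithelial identity in the label. Macrophages are classical sources of Saa3 and Lcn2, and hepatocytes of Lcn2. Of 10 macrophage markers 3 had values (Cd68, Csf1r and Cd14, the last at 26.1 to 31.7 CPM). Ptprc, Adgre1, Itgam, Lyz2, Tyrobp, Fcer1g and C1qa have no row in the count table. The same holds for the hepatocyte markers Alb, Apoa1 and Ttr.

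In cells given IL27_pepL the 2 acute-phase genes were higher and the feedback inhibitor Socs3 lower than in plasmid control cells, and Lif and Myc were lower than in IL27_scr cells. Bcl3, Cebpb and Mcl1 passed in no comparison, and no member passed between IL27_scr and plasmid control. A gene was called when the Benjamini-Hochberg adjusted p of edgeR's quasi-likelihood test, taken over all 12125 genes, was under 0.05. For IL27_pepL against plasmid control 2 of 8 members were called higher and 1 lower, where 0.429% of all genes were called higher and 1.2% lower. For IL27_pepL against IL27_scr 0 of 8 were called higher and 2 lower, against 1.09% and 1.44% of all genes; with the replicate number as a block, all-gene calls went from 306 to 1110 and member calls from 2 to 4. For IL27_scr against plasmid control edgeR called 0 of 8 in either direction, against 0.0165% of all genes higher and 0.00825% lower; Lcn2 and Lif had an unadjusted p under 0.05, and DESeq2 and limma-voom also called 0. The comparisons share libraries and are therefore not independent of each other.

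The members did not move as 1 block. Their median log2 difference was -0.013 for IL27_pepL against plasmid control, 0.0022 for IL27_pepL against IL27_scr and 0.061 for IL27_scr against plasmid control, where the median over all genes was 0.0023, 0.0036 and -0.0026. Without overlap between the 3 libraries of each group, 2 members stood higher and 3 lower in IL27_pepL than in plasmid control, against 10.7% and 13.4% of all genes. The same counts, 2 higher and 3 lower, held for IL27_pepL against IL27_scr, against 11.7% and 14.3% of all genes. In IL27_scr 3 members stood wholly above plasmid control and 0 below, against 4.75% and 5.25% of all genes. DESeq2 called 4 members in each IL27_pepL comparison, adding Myc against plasmid control, and Saa3 and Socs3 against IL27_scr, where it called 6.38% and 6.54% of all genes.

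The gene lists below are read against these shares of all genes. For IL27_pepL against plasmid control edgeR called 1.62% in either direction and limma-voom 1.44%, and 23% had an unadjusted p under 0.05 in edgeR. For IL27_pepL against IL27_scr the shares were 2.52%, 2.31% and 23.3%. For IL27_scr against plasmid control edgeR called 0.0247%, limma-voom 0.0247% and DESeq2 0.033%, and 2.57% had an unadjusted p under 0.05.

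**Figure D1:**
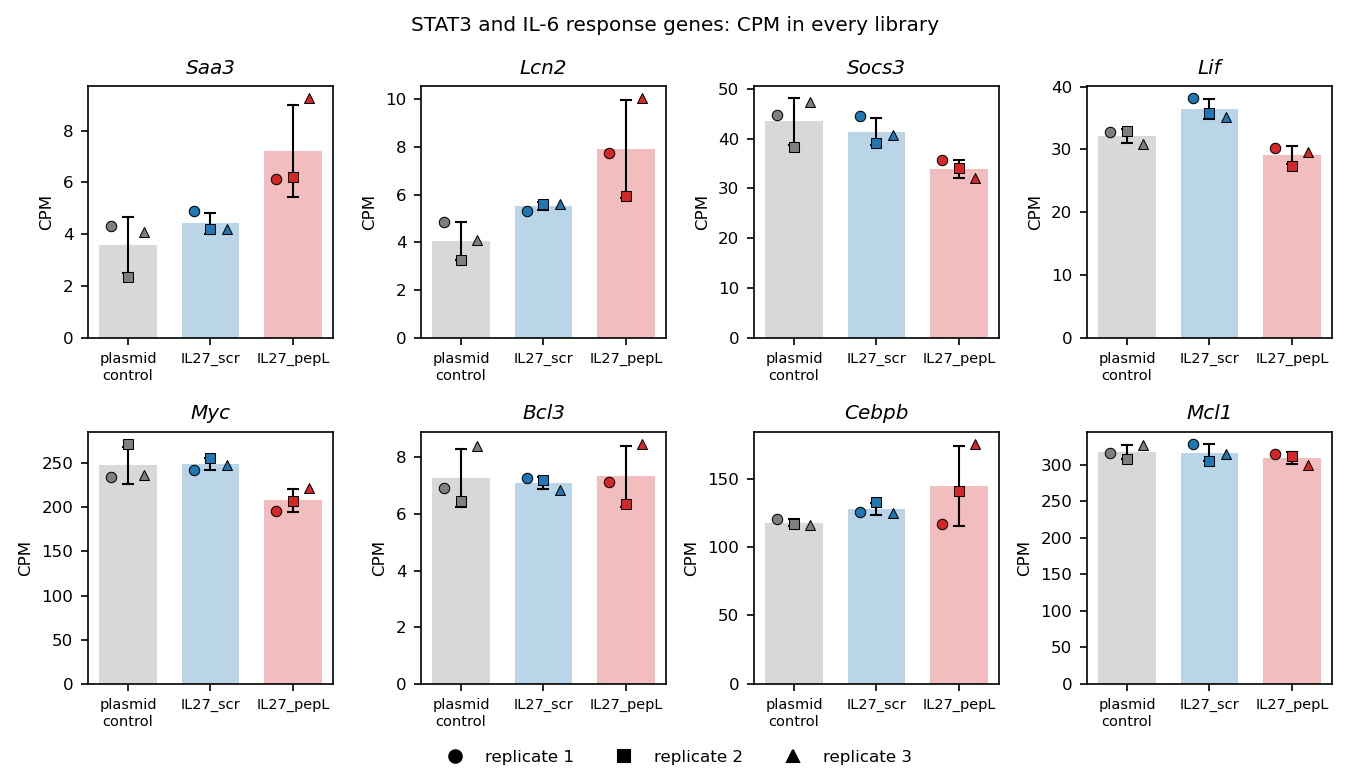
Each panel plots 1 gene, with 1 point per library, CPM on the vertical axis, a bar for the group mean and an error bar for its SD (n = 3). The 3 IL27_pepL points lie above both other groups for Saa3 and Lcn2 and below both for Socs3, Lif and Myc, whereas the groups overlap for Bcl3 and Mcl1.

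Saa3 and Lcn2 encode secreted acute-phase proteins: Saa3 is the serum amyloid A form made outside the liver in mice, and Lcn2 (lipocalin 2) binds bacterial siderophores and withholds iron. Saa3 was at 4.31, 2.34 and 4.08 CPM in plasmid control, at 4.89, 4.21 and 4.18 CPM in IL27_scr, and at 6.15, 6.21 and 9.26 CPM in IL27_pepL. All IL27_pepL libraries were above the 6 others, and the lowest value was that of plasmid control replicate 2. Saa3 rose 1.99-fold in IL27_pepL against plasmid control (log2 difference 1.00 ± 0.20 SE, 95% interval 0.55 to 1.44, edgeR adjusted p = 0.0314). Against IL27_scr the log2 difference was 0.69 ± 0.20 with an edgeR adjusted p of 0.0763, which passed at 0.0333 (log2 difference 0.68) with the replicate number as a block. Between IL27_scr and plasmid control it was 0.30 ± 0.22 (edgeR adjusted p = 0.999), and the groups overlapped.

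Lcn2 was at 4.85, 3.24 and 4.08 CPM in plasmid control, at 5.33, 5.61 and 5.60 in IL27_scr, and at 7.73, 5.94 and 10.0 in IL27_pepL. These 3 groups formed 3 separate steps, with every IL27_scr library above every control and every IL27_pepL library above every IL27_scr library. Lcn2 rose 1.93-fold in IL27_pepL against plasmid control (log2 difference 0.95 ± 0.18, 95% interval 0.56 to 1.33, edgeR adjusted p = 0.0205). The smaller steps did not pass: the log2 difference was 0.51 ± 0.17 against IL27_scr (edgeR adjusted p = 0.105) and 0.43 ± 0.18 between IL27_scr and plasmid control (unadjusted p = 0.0356 and adjusted p = 0.999, both from edgeR across all genes). IL27_pepL replicate 3, the library that stood apart, was the highest for both acute-phase genes, and plasmid control replicate 2 the lowest for both. The 3 macrophage markers summed to 34.1 to 36.6 CPM in plasmid control, 36.4 to 38.4 in IL27_scr and 36.7 to 41.0 in IL27_pepL. Over all libraries Cd14 made up most of this sum, at 26.1 to 31.7 CPM. Cd68 reached 5.85 to 7.93 CPM and Csf1r 1.2 to 1.69 CPM. All samples were of the TC2R line, and the part of this sum in these differences was not tested. In bulk RNA more cells of a type and more RNA per cell cannot be told apart.

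Few reads stand behind both genes, 70 to 273 a library for Saa3 and 97 to 296 for Lcn2. With only the 2 compared groups in the fit, neither passed against plasmid control (edgeR adjusted p = 0.0739 for Saa3 and 0.0637 for Lcn2). Under all 19 alternatives the log2 difference to plasmid control stayed between 0.77 and 1.17 for Saa3 and between 0.74 and 1.12 for Lcn2. Without IL27_pepL replicate 3 the log2 difference to plasmid control was 0.78 for Saa3 (edgeR adjusted p = 0.0558) and 0.74 for Lcn2 (edgeR adjusted p = 0.0323). Without plasmid control replicate 2 it was 0.77 for Saa3 (edgeR adjusted p = 0.125) and 0.81 for Lcn2 (0.122), and without plasmid control replicate 3 it was 1.09 and 0.95 (edgeR adjusted p = 0.0703 for both). The Saa3 call was also lost, at a log2 difference as large or larger, without plasmid control replicate 1 (1.17, edgeR adjusted p = 0.0583) or IL27_pepL replicate 2 (1.09, 0.0717). Without IL27_scr replicate 2 or 3, which enter only the estimate of spread, it was 1.00 with an edgeR adjusted p of 0.0501 and 0.056. Saa3 passed against IL27_scr without plasmid control replicate 2 (edgeR adjusted p = 0.0389) and without IL27_pepL replicate 1 (0.0181).

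Of 25 listed acute-phase and secreted defence genes 8 had values, Saa3 and Lcn2 among them. In IL27_pepL against plasmid control 7 of these 8 had a log2 difference above 0, as had 50.6% of all genes. The median of the 8 was 0.46, with Saa3 and Lcn2 included. Lbp and Serpina3n, also among the 8, were near the floor, at 0.426 ± 0.158 and 0.373 ± 0.0724 CPM in plasmid control. Saa3 and Lcn2 were the 2 that passed. The complement gene C3 was at 32.9 ± 5.15 CPM in plasmid control and 41.3 ± 6.17 in IL27_pepL, a log2 difference of 0.33 ± 0.12 (edgeR adjusted p = 0.136). Il1rn, the IL-1 receptor antagonist, lay the other way, at 1.50 ± 0.0385 and 1.14 ± 0.244 CPM, a log2 difference of -0.40 ± 0.19 (edgeR adjusted p = 0.228). Timp1, an inhibitor of matrix metalloproteinases, was at 72.3 ± 0.952 and 76.0 ± 9.77 CPM, a log2 difference of 0.07 ± 0.08 (edgeR adjusted p = 0.63). Among 6 measured genes of iron and siderophore handling, edgeR called only Lcn2 for IL27_pepL against plasmid control and DESeq2 called 3; the ferritin chain genes Fth1 and Ftl1 stood above plasmid control without overlap, at log2 differences of 0.19 ± 0.06 and 0.22 ± 0.07 (edgeR adjusted p = 0.0988 and 0.0976).

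**Figure D2:**
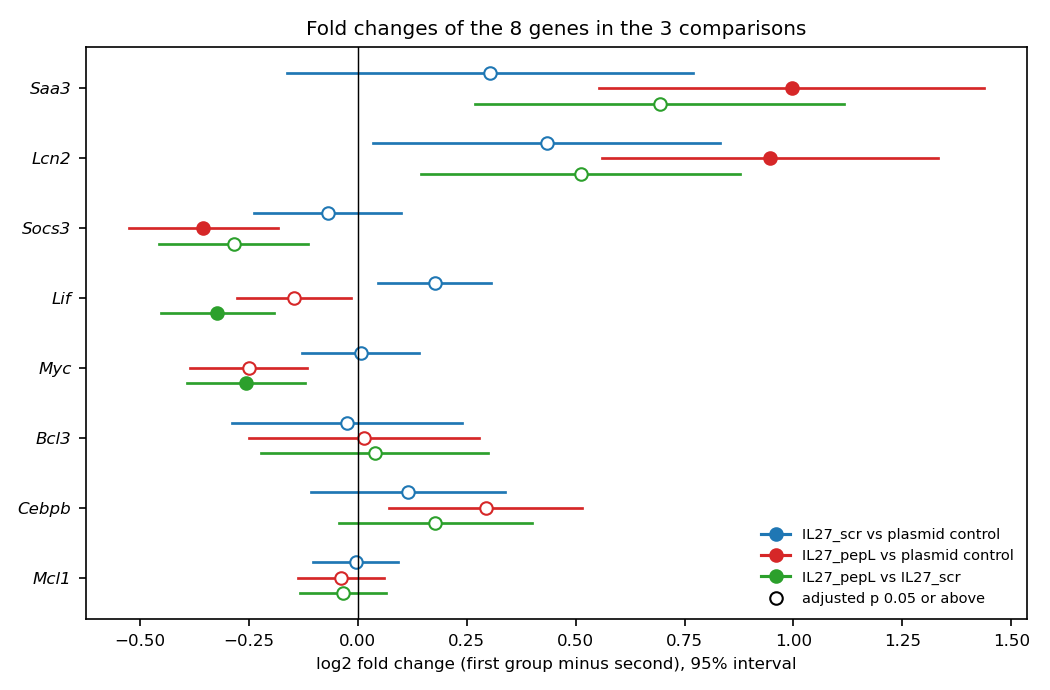
Points are log2 fold changes of the 8 genes in the 3 comparisons with 95% intervals, from the edgeR fit of all 9 libraries, and filled points passed at an adjusted p under 0.05. Saa3 and Lcn2 lie to the right at 1.00 and 0.95 in IL27_pepL against plasmid control, Socs3 lies to the left at -0.35, and the intervals of Mcl1 and Bcl3 span 0 in each comparison.

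Socs3, the feedback inhibitor, went the opposite way from the acute-phase genes. Its level was 44.7, 38.3 and 47.4 CPM in plasmid control, 44.5, 39.1 and 40.6 CPM in IL27_scr, and 35.7, 34.0 and 32.1 CPM in IL27_pepL. Every IL27_pepL library was below the 6 others, with IL27_pepL replicate 3 the lowest. Socs3 fell in IL27_pepL to 0.782 of plasmid control (log2 difference -0.35 ± 0.08, 95% interval -0.53 to -0.18, edgeR adjusted p = 0.0438). Against IL27_scr the log2 difference was -0.28 ± 0.08 with an edgeR adjusted p of 0.0709, which passed at 0.0302 (log2 difference -0.28) with the replicate number as a block. Between IL27_scr and plasmid control it was -0.07 ± 0.08, and the groups overlapped.

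The Socs3 call against plasmid control lay close to the threshold. limma-voom gave an adjusted p of 0.0536, and edgeR with only the 2 compared groups 0.0991. edgeR's adjusted p was 0.128 without plasmid control replicate 1, 0.121 without plasmid control replicate 3, 0.118 without IL27_pepL replicate 2 and 0.09 without IL27_pepL replicate 3. Without IL27_scr replicate 1, 2 or 3, which enter only the estimate of spread, edgeR's adjusted p was 0.0507, 0.0634 and 0.0786. The log2 difference stayed between -0.44 and -0.29 under all 19 alternatives tried. Against IL27_scr, Socs3 passed without plasmid control replicate 2 (edgeR adjusted p = 0.0389) or IL27_pepL replicate 1 (0.0235).

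The other SOCS genes, which encode related inhibitors of cytokine receptors, lay on the same side as Socs3, a grouping singled out after its values were seen. Of the 8 genes Cish and Socs1 to Socs7, 0 had a log2 difference above 0 in IL27_pepL against plasmid control, the median was -0.14, and 6 stood lower without overlap between groups (Socs1, Socs3, Socs4, Socs5, Socs6 and Socs7). Over all genes 50.6% were above 0 in that comparison and 13.4% stood lower without overlap. Socs3 was the only one of them that edgeR called; DESeq2 called 2 and limma-voom 0. Socs1, which encodes an inhibitor of JAK kinases, was at 16.7 ± 0.653 CPM in plasmid control and 12.5 ± 2.32 in IL27_pepL, a log2 difference of -0.43 ± 0.11 (edgeR adjusted p = 0.0682). Socs5 was at 233.5 ± 3.69 and 216.4 ± 1.07 CPM, a log2 difference of -0.11 ± 0.04 (edgeR adjusted p = 0.15). Against IL27_scr 1 of 8 was above 0, with a median of -0.16, and between IL27_scr and plasmid control 3 of 8 were, with a median of -0.02. Of the 8 measured PIAS and phosphatase inhibitors listed beside them, edgeR called 0 in any comparison, with 0 at an unadjusted p under 0.05 and 0 called by DESeq2 or limma-voom.

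Lif encodes leukemia inhibitory factor, a ligand of the IL-6 family and itself a STAT3 activator. It was at 32.8, 32.9 and 30.9 CPM in plasmid control, at 38.2, 35.9 and 35.1 CPM in IL27_scr, and at 30.3, 27.4 and 29.6 CPM in IL27_pepL. The 3 groups did not overlap: IL27_scr was the highest, plasmid control lay between and IL27_pepL was the lowest. Lif fell in IL27_pepL to 0.799 of IL27_scr (log2 difference -0.32 ± 0.06, 95% interval -0.45 to -0.19, edgeR adjusted p = 0.0146). Neither step around plasmid control passed, with log2 differences of 0.18 ± 0.06 for IL27_scr (edgeR adjusted p = 0.999) and -0.15 ± 0.06 for IL27_pepL (edgeR adjusted p = 0.173). The call was lost without IL27_scr replicate 1 (edgeR adjusted p = 0.0835), IL27_scr replicate 2 (0.0609) or IL27_pepL replicate 2 (0.0708), and the log2 difference stayed between -0.35 and -0.28. Of 10 listed IL-6 family ligands 7 had values, and the other edgeR calls among them were the transgenes Il27 and Ebi3 against plasmid control. Among the endogenous ligands, Clcf1, which encodes cardiotrophin-like cytokine, was at 23.9 ± 1.40 CPM in plasmid control and 22.8 ± 0.721 in IL27_pepL, and Il11 was at 1.67 ± 0.468 and 1.6 ± 0.361 CPM.

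Myc encodes the growth-promoting transcription factor MYC, which in epithelial cells STAT3 can induce. Myc was at 234.2, 271.9 and 237.1 CPM in plasmid control, at 242.1, 256.0 and 248.1 CPM in IL27_scr, and at 195.3, 207.4 and 221.7 CPM in IL27_pepL. The IL27_pepL libraries lay below the other 6, but here IL27_pepL replicate 3 was the one nearest to the other groups. Myc fell in IL27_pepL to 0.837 of IL27_scr (log2 difference -0.26 ± 0.06, 95% interval -0.39 to -0.12, edgeR adjusted p = 0.0491). Against plasmid control the log2 difference was of like size, -0.25 ± 0.06, with an edgeR adjusted p of 0.0619, and IL27_scr differed from plasmid control by 0.01 ± 0.06.

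The Myc call lay at the threshold as well. It was lost with DESeq2's size factors (edgeR adjusted p = 0.0517), with a filter at 1 CPM (0.0547) and with only the 2 compared groups in the fit (0.0562). It was lost without plasmid control replicate 1 (edgeR adjusted p = 0.0688) or replicate 3 (0.0733), without IL27_scr replicate 1, 2 or 3 (0.113, 0.168 and 0.126) and without IL27_pepL replicate 2 (0.133). The log2 difference stayed between -0.31 and -0.21 under all 19 alternatives. Against plasmid control Myc passed with the length and GC offset (log2 difference -0.32, edgeR adjusted p = 0.00781), with DESeq2 (adjusted p = 0.0138), without IL27_pepL replicate 1 (edgeR adjusted p = 0.0408) and without IL27_pepL replicate 3 (0.0323).

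Genes around MYC lay on both sides of 0. Of 32 listed MYC targets, all with values, edgeR called 0 in each comparison; for IL27_pepL against plasmid control 6 had an unadjusted p under 0.05 (23% of all genes did), DESeq2 called 3 and limma-voom 0. Of the 32, 20 had a log2 difference above 0 in that comparison, as had 50.6% of all genes, and the median was 0.05. Without overlap between groups, 3 of the 32 stood higher in IL27_pepL and 1 lower, against 10.7% and 13.4% of all genes. Ldha (lactate dehydrogenase A) and Cdk4 (a cell-cycle kinase) were among the higher. Their log2 differences were 0.21 ± 0.06 and 0.22 ± 0.07 (edgeR adjusted p = 0.0858 and 0.0988). The lower one was Ccnd2, at 488.2 ± 8.57 CPM in plasmid control and 443.9 ± 34.5 in IL27_pepL. Among 11 measured genes of the MYC network, Myc was the only one that edgeR called, in IL27_pepL against IL27_scr, while DESeq2 called 2 in each IL27_pepL comparison. Against plasmid control 4 of the 11 stood lower in IL27_pepL without overlap (Myc, Max, Mnt and Mga) and 2 higher (Mxd3 and Mxi1). Max, the partner through which MYC binds DNA, differed by -0.06 ± 0.05 from plasmid control (edgeR adjusted p = 0.416), and Mga, whose product also pairs with MAX, by -0.27 ± 0.09 (edgeR adjusted p = 0.101). Mxd3, whose product competes for MAX, differed by 0.37 ± 0.12 (edgeR adjusted p = 0.104).

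Cebpb encodes C/EBP beta, first described as the nuclear factor of IL-6 responses and a regulator of acute-phase genes. Cebpb was at 120.7, 117.1 and 115.9 CPM in plasmid control, at 125.6, 132.9 and 124.6 CPM in IL27_scr, and at 117.1, 141.2 and 175.5 CPM in IL27_pepL. The IL27_pepL libraries overlapped both other groups and had a coefficient of variation of 20.3%, against 2.13% in plasmid control and 3.56% in IL27_scr. The log2 difference to plasmid control was 0.29 ± 0.10 (95% interval 0.07 to 0.52, edgeR adjusted p = 0.124). Without IL27_pepL replicate 3 it was 0.13 (edgeR adjusted p = 0.315), and without IL27_pepL replicate 1 it was 0.43 and passed (edgeR adjusted p = 0.0026). With an offset for gene length and GC content it was 0.10 (edgeR adjusted p = 0.336); Cebpb transcripts have a GC content of 67.2%, the highest of the 8. Against IL27_scr the log2 difference was 0.18 ± 0.10 (edgeR adjusted p = 0.315), which passed at 0.31 (edgeR adjusted p = 0.0107) without IL27_pepL replicate 1. Tmem189, which overlaps Cebpb, was at 37.2 ± 1.73 CPM in plasmid control and 39.5 ± 2.32 in IL27_pepL. Of 5 measured C/EBP genes edgeR called 0 for IL27_pepL against plasmid control, with 2 at an unadjusted p under 0.05, which 23% of all genes had, and 0 called by DESeq2 or limma-voom.

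Bcl3 encodes an atypical IkB protein that works with NF-kB p50 and p52 homodimers in the nucleus. Bcl3 was at 6.90, 6.45 and 8.42 CPM in plasmid control, at 7.25, 7.21 and 6.85 CPM in IL27_scr, and at 7.14, 6.36 and 8.48 CPM in IL27_pepL. The groups overlapped fully, and the spread within plasmid control and within IL27_pepL exceeded any distance between group means. The log2 difference to plasmid control was 0.01 ± 0.12 in IL27_pepL (95% interval -0.25 to 0.28), -0.03 ± 0.12 in IL27_scr (-0.29 to 0.24), and 0.04 ± 0.12 between the IL-27 groups (-0.22 to 0.30). Of 10 measured NF-kB subunit and IkB genes edgeR called 1, Rel (c-Rel), which fell in IL27_pepL against IL27_scr by 0.39 on the log2 scale (SE 0.08, edgeR adjusted p = 0.0232). Without IL27_scr replicate 1, 2 or 3 the Rel value was -0.35, -0.41 and -0.41 (edgeR adjusted p = 0.12, 0.082 and 0.0704), and with only the 2 groups or with the length and GC offset the edgeR adjusted p was 0.0654 and 0.0568.

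Mcl1 encodes a short-lived antiapoptotic protein of the BCL2 family and had the smallest standard errors of the 8. It was at 316.6, 307.8 and 327.2 CPM in plasmid control, at 328.4, 305.4 and 314.4 CPM in IL27_scr, and at 315.1, 311.6 and 299.2 CPM in IL27_pepL. The 3 groups overlapped. The 95% intervals of its log2 differences were -0.14 to 0.06 for IL27_pepL against plasmid control, -0.13 to 0.06 for IL27_pepL against IL27_scr and -0.10 to 0.09 for IL27_scr against plasmid control. Of 14 measured BCL2 family genes edgeR called 0 in each comparison; for IL27_pepL against plasmid control 4 had an unadjusted p under 0.05 (23% of all genes), DESeq2 called 3 and limma-voom 0. Hrk, a proapoptotic BH3-only gene, had the lowest log2 difference of the family there, -0.82 ± 0.20 (edgeR adjusted p = 0.0613), and Bad, another proapoptotic gene, the highest, 0.38 ± 0.11 (edgeR adjusted p = 0.0933). The antiapoptotic STAT3 target Bcl2l1 was at 60.5 ± 1.79 CPM in plasmid control and 64.7 ± 0.382 in IL27_pepL, a log2 difference of 0.10 ± 0.05 (edgeR adjusted p = 0.244).

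Of 104 listed genes of IL-6 and STAT3 signalling other than the 8 members, 82 had values, and edgeR called 3 of them for IL27_pepL against plasmid control, where 1.62% of all genes were called, 2 for IL27_pepL against IL27_scr and 2 for IL27_scr against plasmid control. Il27 and Ebi3 were called in each comparison with plasmid control, Egr1 in both IL27_pepL comparisons, and Il11ra1 in IL27_pepL against IL27_scr; all these calls were higher. Egr1, an immediate-early transcription factor gene, was at 530.5 ± 53.1 CPM in plasmid control, 533.8 ± 50.1 in IL27_scr and 853.0 ± 74.6 in IL27_pepL. Egr1 rose by a log2 difference of 0.69 ± 0.09 against plasmid control and 0.68 ± 0.09 against IL27_scr (edgeR adjusted p = 0.00207 and 0.00208), and passed in each of the 19 alternatives for both. Il11ra1, the IL-11 receptor alpha gene, rose by 0.35 ± 0.08 against IL27_scr (edgeR adjusted p = 0.0434), a value that is uncertain because mice carry a near-identical copy, Il11ra2. Leaving out any library other than IL27_pepL replicate 1 took the Il11ra1 call away, with edgeR adjusted p between 0.0502 and 0.141.

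edgeR called none of Stat3, Il6st, Il6ra, Lifr and Il27ra in the 3 comparisons. Stat3 was at 82.9 ± 2.41 CPM in plasmid control, 83.3 ± 4.27 in IL27_scr and 81.7 ± 3.54 in IL27_pepL, log2 differences of 0.01 ± 0.05 and -0.02 ± 0.05. Il6st (gp130) was at 171.8 ± 4.35, 167.0 ± 3.98 and 151.9 ± 5.68 CPM, with every IL27_pepL library the lowest and a log2 difference of -0.18 ± 0.04 against plasmid control (edgeR adjusted p = 0.0647). Il6st passed there with DESeq2 (adjusted p = 0.0149) and without IL27_pepL replicate 1 (edgeR adjusted p = 0.0138). Against IL27_scr the Il6st difference was -0.14 ± 0.04 (edgeR adjusted p = 0.103), and it passed with the replicate block (edgeR adjusted p = 0.0478) and without IL27_pepL replicate 1 (0.0395). The alpha chain gene Il6ra differed from plasmid control by -0.17 ± 0.09 (edgeR adjusted p = 0.254), Lifr, the LIF receptor gene, by -0.12 ± 0.10 (0.462) and Il27ra by 0.16 ± 0.14 (0.502). Il27ra was low, at 2.62 ± 0.31 CPM in plasmid control.

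Of the 20 measured STAT3-responsive transcription factor genes, edgeR called Egr1 alone for IL27_pepL against plasmid control, and Egr1 and Myc for IL27_pepL against IL27_scr; DESeq2 called 3 and 2. Of the 13 measured STAT3-responsive survival and cell-cycle genes edgeR called 0 in each comparison; for IL27_pepL against plasmid control 5 had an unadjusted p under 0.05 (23% of all genes), DESeq2 called 1 and limma-voom 0.

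**Figure D3:**
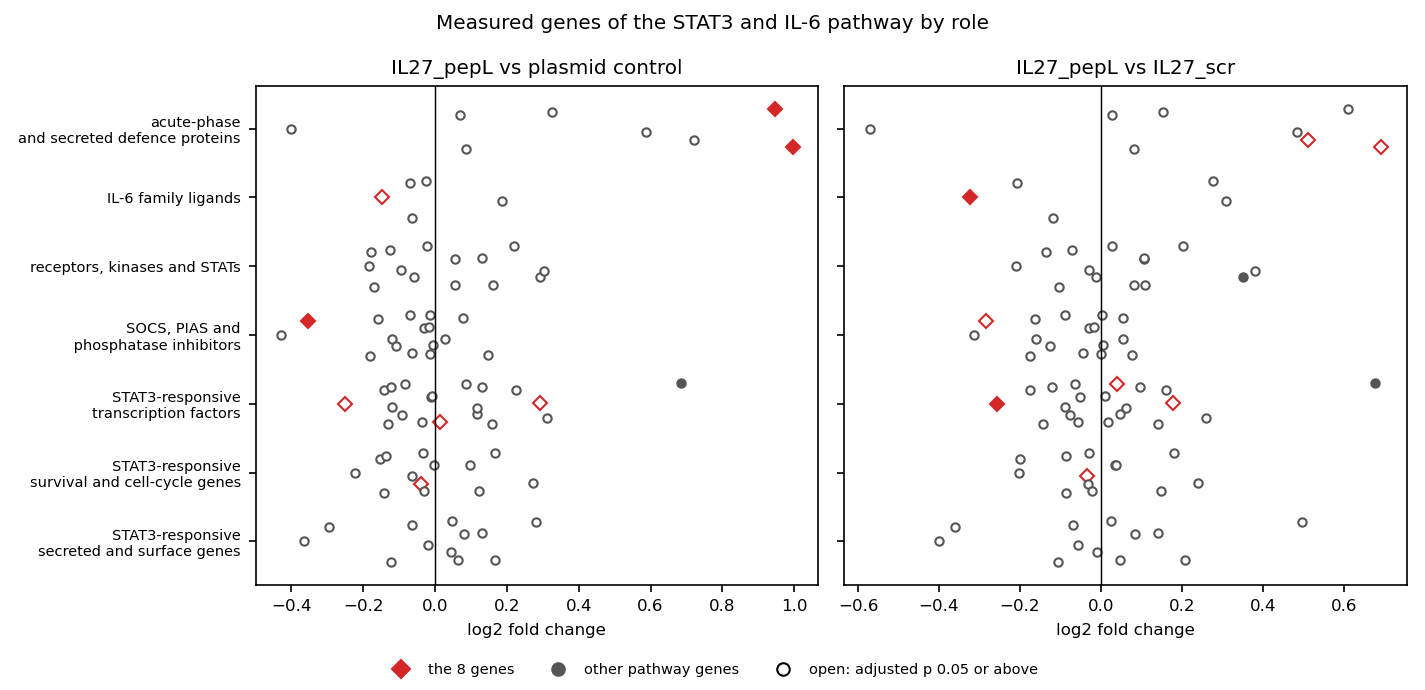
Each point is the log2 fold change of 1 measured gene of the IL-6 and STAT3 lists, in rows by role, for IL27_pepL against plasmid control (left) and against IL27_scr (right), without the transgenes Il27 and Ebi3; diamonds are the 8 members and filled symbols passed. In the left panel Saa3 and Lcn2 lie farthest to the right, Egr1 lies at 0.69, and Socs1 at -0.43 and Socs3 at -0.35 lie on the left of their row.

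Levels can be set against each other only per transcript length. The length used was that of the longest annotated transcript, 2200 bases for Saa3, 1850 for Bcl3 and 1374 for Lcn2. Where the cells mainly make a shorter transcript, the level per kilobase is understated, so the order depends on this choice. In plasmid control Myc was the highest at 106.0 ± 8.97 CPM per kilobase of transcript, followed by Mcl1 at 92.8 ± 2.85 and Cebpb at 78.4 ± 1.67. Socs3 followed at 17.0 ± 1.84, Lif at 8.0 ± 0.273, Bcl3 at 3.92 ± 0.556, Lcn2 at 2.95 ± 0.584 and Saa3 at 1.63 ± 0.489 CPM per kilobase. On this scale the plasmid control libraries of neighbouring genes in the order did not overlap, other than those of Bcl3 and Lcn2.

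**Figure D4:**
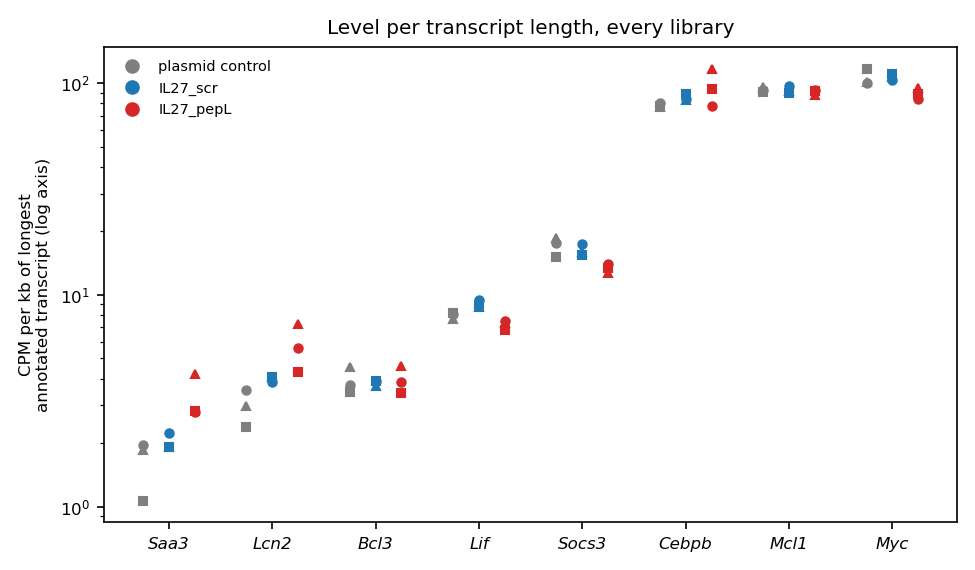
Points are the level of each gene in each library, coloured by group, with the marker shape for the replicate. The logarithmic axis is CPM per kilobase of the longest annotated transcript. In plasmid control the genes run from Myc at 106.0 down to Saa3 at 1.63.

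For each member the genes with the most similar profile were ranked by Pearson's r of log2 CPM over the 9 libraries, among the 10927 genes that averaged 1 CPM or more; the libraries share groups and replicate 3 of IL27_pepL, so r is a description of these libraries only. Saa3 lay closest to Map2k1 (r = 0.990), Tap2 (0.977) and Tmsb4x (0.976), and Lcn2 to Fermt2 (0.972), Tuba1c (0.972) and Tnfaip2 (0.960). Between Saa3 and Lcn2 r was 0.937 over the 9 libraries and 0.813 within groups. Socs3 lay closest to Zbtb1 (0.971), Peli1 (0.969) and Errfi1 (0.965), and Lif to Gusb (0.955), Tiparp (0.945) and Stam (0.934). Myc lay closest to Snhg17 (0.986), Rbm39 (0.983) and Mtbp (0.981). Cebpb, at 398 genes with r above 0.9, had the most neighbours, led by Exoc3l4 (0.989), Txndc15 (0.988) and Mrpl37 (0.986), whereas Bcl3 had 2, Cerk (0.917) and Ttc39a (0.909), with Ufsp2 next (0.891). Mcl1 lay closest to Cdk13 (0.965), Foxp2 (0.952) and Traf3 (0.937).

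Within groups the order of libraries linked some members. The r within groups was 0.918 between Socs3 and Mcl1, -0.915 between Socs3 and Myc, and -0.792 between Myc and Mcl1. Saa3 and Lcn2 had their lowest value in the same library, plasmid control replicate 2, and their highest in IL27_pepL replicate 3. Socs3 and Myc, both lower in IL27_pepL, ran in opposite orders inside it: replicate 3 had the lowest Socs3 and the highest Myc of the group, and replicate 1 the highest Socs3 and the lowest Myc. The order was reversed in IL27_scr too, and plasmid control replicate 2 had the lowest Socs3 and the highest Myc of its group. These orders were noticed in the values and carry no test.

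**Figure D5:**
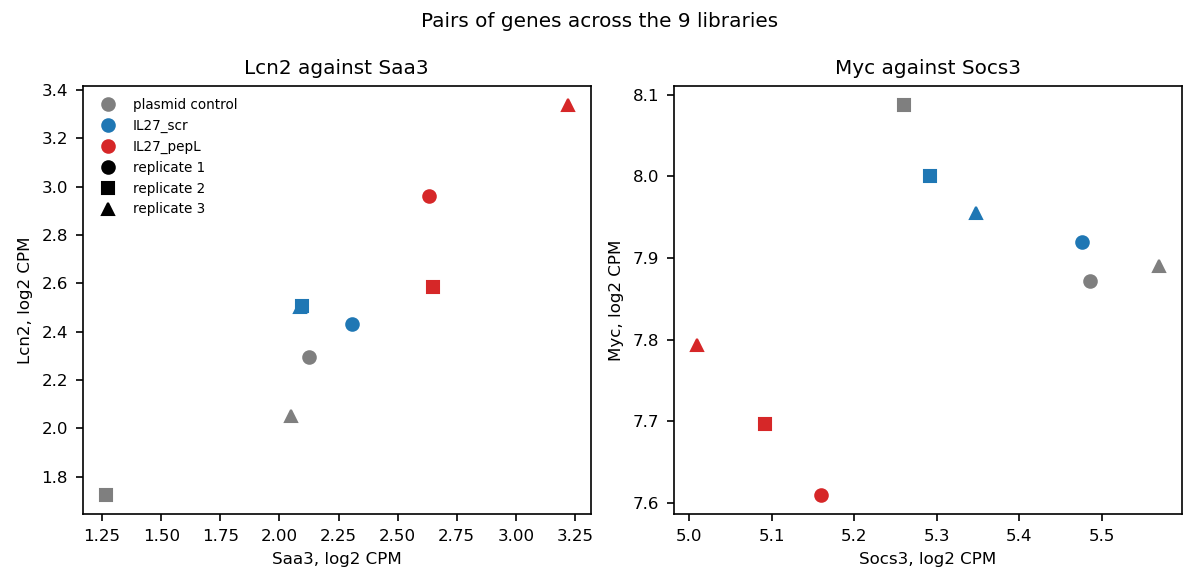
Points are the 9 libraries, coloured by group and shaped by replicate, with log2 CPM of Saa3 and Lcn2 on the axes of the left panel and of Socs3 and Myc on those of the right panel. IL27_pepL replicate 3 lies at the upper right on the left, and on the right the 3 IL27_pepL libraries lie low on both axes but run from upper left to lower right.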

How the data were processed

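The authors deposited 1 table of unnormalized read counts, with genes in rows, a column for each library, and whole numbers whose totals differ. The authors' steps are known from the submitters' processing notes, which name FastQC, STAR (1.5.1 is printed beside it, and may not be its version), featureCounts, Subread 1.6.1, edgeR 3.22.5 and the mm10 build without roles or order. RNA was extracted with an RNeasy kit, per the labels' protocols. The annotation, the strand setting and the treatment of reads with several positions have no statement in the sources used here, so counts of overlapping genes and of near-identical copies may be shared, dropped or split.

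The fit was made with edgeR 4.0.16 under R 4.3.3. It held all 9 libraries and group as its only term, so the 3 groups share the estimate of spread (common biological coefficient of variation 5.76%). Normalization was by TMM, filterByExpr removed 0 genes, and p-values of the quasi-likelihood test were adjusted by Benjamini-Hochberg over 12125 genes, with calls at an adjusted p under 0.05. The standard error of a log2 difference comes from the quasi-likelihood F statistic. Levels per kilobase use the longest GENCODE M21 transcript, and a length and GC content were known for 11694 genes (96.4%). Promoter windows came from RefSeq and held 7 of the 8 members. DESeq2 1.42.0, limma-voom (limma 3.58.1), other normalizations and filters, a length and GC offset, the replicate block and leaving out each library were alternatives.

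Replicate numbers were checked for pairing by the correlation, over genes, of same-numbered libraries' deviations from their group means. It was 0.40, 0.16 and 0.13 between IL27_pepL and IL27_scr, and 0.14, 0.32 and 0.13 between IL27_scr and plasmid control. These values lie above the limit of 0.1 set for calling libraries paired. Between IL27_pepL and plasmid control it was 0.10, 0.24 and -0.03, which was read as unpaired. Libraries of different number were not correlated, so these values have no reference and cannot decide whether the numbers pair. The readings also conflict, since pairing of IL27_scr with both other groups would pair those groups too. The main fit held no replicate term in any comparison, so its calls leave any pairing out. The replicate block was run only as an alternative. No label ties libraries by number. Replicates of a group differed by more than counting noise in every pair. The members and the gene lists were chosen with earlier results of these data known. The genes named are the 8 members, every called gene of the pathway lists, Stat3, Il6ra, Il6st, Il27ra, Lifr and Socs1, up to 4 called genes of each partner list, and the 3 genes most like each member; others named were chosen after their values were seen. Some genes that this rule or the marker lists name are not reported here.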

Additional observations from a re-analysis of the deposited data

How the results depend on the processing

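Of the 5 member calls, 0 changed sign under any alternative, and 0 kept the threshold under every one. Fitting only the 2 compared groups left 0 member calls for IL27_pepL against plasmid control and 1 for IL27_pepL against IL27_scr. For the latter, DESeq2's size factors and the 1 CPM filter left 1, DESeq2 gave 4 and the replicate block gave 4. Leaving out 1 library moved the member calls between 0 and 5 in each IL27_pepL comparison.

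Over all genes, calls for IL27_pepL against plasmid control were 774 with DESeq2, 48 with only the 2 groups, 1019 with the replicate block, and 36 to 2084 when 1 library was left out, the highest without IL27_pepL replicate 1. For IL27_pepL against IL27_scr they were 793, 165, 1110 with the block, 478 with the length and GC offset, and 69 to 1782. Without Il27 and Ebi3 IL27_scr against plasmid control kept 1 call. Pathway calls beyond the members were 0 in that comparison without the transgenes. For IL27_pepL against plasmid control they were 9 with DESeq2, 11 with the block, 1 without the transgenes, 8 with the offset and 3 to 16 with 1 library left out. For IL27_pepL against IL27_scr they were 9, 1 with limma-voom, 11, 7 and 1 to 13. For IL27_pepL against plasmid control the replicate numbers were read as unpaired. There the block took Myc (-0.25, edgeR adjusted p = 0.0249) and Il6st (-0.18, 0.0277) past the threshold. The cause of these moves was not tested.

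Reversed signs were found only for differences near 0 that never passed, or, for Cebpb, passed only without IL27_pepL replicate 1. With the length and GC offset, Myc was -0.0059 for IL27_scr against plasmid control; Bcl3 was -0.13 and Stat3 0.020 for IL27_pepL against plasmid control; and Bcl3 was -0.090, Cebpb -0.0047 and Il27ra -0.016 for IL27_pepL against IL27_scr. With 1 library left out, the range for IL27_scr against plasmid control was -0.033 to 0.078 for Myc, -0.10 to 0.089 for Bcl3, -0.034 to 0.019 for Mcl1 and -0.036 to 0.031 for Stat3. For IL27_pepL against plasmid control it was -0.097 to 0.13 for Bcl3 and -0.044 to 0.014 for Stat3. For IL27_pepL against IL27_scr it was -0.072 to 0.13 for Bcl3, -0.053 to 0.015 for Stat3 and -0.038 to 0.085 for Il27ra. Saa3, Lcn2 and Bcl3 rest on few reads, 70 to 296 a library.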
